A study of Mus musculus with 12 samples.

Results

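Hoxb13 peaks in first introns were described in mouse ventricle at postnatal day 15, from chromatin immunoprecipitation followed by sequencing, which recovers the DNA that a protein sits on. They were the peaks of the Hoxb13 list that the authors' annotation places in intron 1 of a transcript, 1929 of 22284 peaks (8.66%), in a series of 52818 peaks over 2 factors. Another 3294 Hoxb13 peaks lay in later introns, and the Meis1 list had 3088 peaks in first introns. Among the 1929 peaks, 182 were in transcripts with only 1 intron, which have no later intron to compare. The 12 libraries were Hoxb13 precipitates (n = 3), Meis1 precipitates (n = 3) and input chromatin for each factor (n = 3 and n = 3), all from CD-1 mice, an outbred strain, with no mutation or treatment named in the labels. Per the labels' protocols, ventricles of 3 hearts served as replicates and sheared chromatin was divided between an anti-Hoxb13 and an anti-Meis1 antibody, but the titles number the libraries of each factor apart. Each list was made over 3 precipitates and holds no value per library. No spread between hearts can therefore be given, read depth was unknown, and the intervals and p-values below describe the lists. Intervals are exact binomial 95% intervals and tests are Fisher's exact tests, two-sided, on counts of peaks or genes, with p-values adjusted by Benjamini-Hochberg over 9 comparisons. Peaks in one intron share a target, so these p-values can be too small.

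Hoxb13 is a posterior Hox transcription factor, best known from the prostate and hindgut, and Meis1 is a TALE homeobox protein that can bind DNA together with Hox proteins. In the postnatal heart both have been studied as regulators of the withdrawal of cardiomyocytes from the cell cycle. First introns follow the first exon of a transcript, are often long, and commonly hold enhancers and alternative promoters of their gene.

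A first intron of one transcript can hold the start site of another, so the peaks were set against RefSeq start-site windows, which run from 250 bases before to 50 after a start (GRCm38.p6, the assembly of the authors' mm10 build). On the chromosomes that the window table covers, 22 of 1854 first-intron Hoxb13 peaks touched a window, or 1.19% (0.745 to 1.79), against 28 of 3126 later-intron peaks, or 0.896% (0.596 to 1.29). The odds ratio was 1.33 (95% interval 0.722 to 2.42, Fisher's exact test, adjusted p = 0.425), so a difference between the introns was not shown. Low shares were set in advance, since the authors' annotation files peaks near its own start sites as promoter peaks. The closest peak of either class lay 1.01 kb from such a start. The touched windows are therefore of RefSeq starts that the annotation did not use, and the shares do not measure binding at starts in general. In 8 of the 22 cases the window belonged to the host gene itself, the gene whose intron holds the peak, and in 13 to a long non-coding RNA gene. The host's own windows that held a summit were those of 4 genes, and they are printed because of that summit. A summit in the window did not mean that the peak reached the start. The Arrdc3 peak and the stronger Sp2 peak, whose summit is marked, ended short of it. Peaks at Akap7, Srebf1 and Asb5 covered a start of their host with the summit outside the window, and those windows are not printed. Each window is given 5' to 3' on the gene's strand, with the 31 bases around the summit in capitals.
Tspan9: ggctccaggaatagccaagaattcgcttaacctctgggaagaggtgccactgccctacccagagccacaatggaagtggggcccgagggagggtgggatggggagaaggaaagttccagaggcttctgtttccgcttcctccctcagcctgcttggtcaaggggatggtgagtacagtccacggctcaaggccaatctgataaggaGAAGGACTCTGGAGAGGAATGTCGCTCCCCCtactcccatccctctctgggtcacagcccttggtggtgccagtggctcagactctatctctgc
BC004004: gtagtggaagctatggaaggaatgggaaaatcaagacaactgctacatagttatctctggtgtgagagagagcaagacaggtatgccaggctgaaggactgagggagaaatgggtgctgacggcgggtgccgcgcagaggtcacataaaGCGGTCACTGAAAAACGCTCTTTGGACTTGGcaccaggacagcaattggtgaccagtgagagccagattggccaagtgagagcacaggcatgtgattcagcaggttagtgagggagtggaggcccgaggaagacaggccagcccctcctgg
Arrdc3: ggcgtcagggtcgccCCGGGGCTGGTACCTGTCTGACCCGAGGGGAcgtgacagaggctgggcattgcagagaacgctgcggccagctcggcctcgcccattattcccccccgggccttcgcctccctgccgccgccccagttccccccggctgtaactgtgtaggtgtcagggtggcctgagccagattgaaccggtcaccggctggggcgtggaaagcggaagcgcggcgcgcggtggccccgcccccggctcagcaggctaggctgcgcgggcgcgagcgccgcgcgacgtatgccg
Sp2: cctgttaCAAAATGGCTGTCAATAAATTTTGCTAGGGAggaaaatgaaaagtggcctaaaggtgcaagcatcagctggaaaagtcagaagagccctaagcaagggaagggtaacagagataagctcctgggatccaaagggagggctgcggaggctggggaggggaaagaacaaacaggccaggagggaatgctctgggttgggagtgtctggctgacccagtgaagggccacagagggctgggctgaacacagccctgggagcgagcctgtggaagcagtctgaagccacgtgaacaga

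Tspan9 encodes a tetraspanin, a membrane organiser; its window is chr6:128124324-128124623 (minus strand), and the peak of strength 18.9 had its summit 29 bp from the start. BC004004 is a gene known by a clone name; its window is chr17:29273862-29274161 (plus strand), and the peak of strength 21.7 covered all 300 bases with its summit 86 bp from the start. Arrdc3 encodes an arrestin-domain protein that regulates receptor trafficking; its window is chr13:80885845-80886144 (plus strand), and the peak of strength 27.1 had its summit 220 bp upstream of the start and overlapped a Meis1 peak. Sp2 encodes a zinc finger transcription factor; its window is chr11:96968616-96968915 (minus strand), and 2 overlapping peaks of strength 18.2 and 23.1 had summits 27 bp and 228 bp from the start, the second of which is marked in capitals. Arrdc3 stood apart in base composition, with 72.7% G and C and 35 CG dinucleotides in its window, against medians of 52.7% and 7 over the 32851 windows. The other windows had 58.0% (Tspan9), 54.3% (BC004004) and 54.3% (Sp2). Motifs were searched on both strands. CCAATAAA and CTCGTAAA, known as binding sequences of human HOXB13, were in 0 of the 4 windows, against 1.12% and 0.131% of all windows. TGATTTAT, a composite of Hox with a TALE protein that lacks the Meis core, was also in 0 of the 4 (0.977% of all). TGACAG, the Meis core, was in those of Sp2 and Arrdc3 (19.2% of all windows). CCAAT, which is also the start of CCAATAAA, was in those of BC004004 and Tspan9 (37.4% of all). The GC box GGGCGG was in that of Arrdc3 (35.7% of all), and the ETS core CCGGAAG in 0 of the 4 (8.86% of all). These matches describe the letters in these windows only.

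First-intron Hoxb13 peaks lay nearer to gene starts than first-intron Meis1 peaks. Their median distance to the nearest start site was 10.5 kb (quartiles 3.50 and 26.6 kb), against 27.6 kb (10.9 and 64.0 kb) for later-intron Hoxb13 peaks and 20.5 kb (7.08 and 57.9 kb) for first-intron Meis1 peaks. The gap to later introns is in part set by the choice of intron 1, and the whole Hoxb13 list, promoter peaks included, had a median of 4.55 kb. The closest member lay 1.01 kb from a start, since the authors' annotation files nearer peaks as promoter peaks. Of the members, 628 (32.6%, 30.5 to 34.7) were within 5 kb of a start, against 569 (18.4%, 17.1 to 19.8) of the first-intron Meis1 peaks, an odds ratio of 2.14 (1.87 to 2.44, adjusted exact p = 5.92e-29). Hoxb13 also placed more of its intronic peaks in first introns, 1929 of 5223 (36.9%, 35.6 to 38.3), against 3088 of 10208 (30.3%, 29.4 to 31.2) for Meis1, an odds ratio of 1.35 (1.26 to 1.45, adjusted exact p = 1.66e-16). The nearest start was that of the host transcript in 1045 members (54.2%), that of another transcript of the host gene in 597 (30.9%) and that of another gene in 287 (14.9%). The 1045 peaks nearest to the host transcript's own start were a median of 9.60 kb from it. Members nearer to another start are not in this median. The farthest of the 1045 lay 722 kb into Lsamp, which encodes a neuronal adhesion protein.

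**Figure D1:**
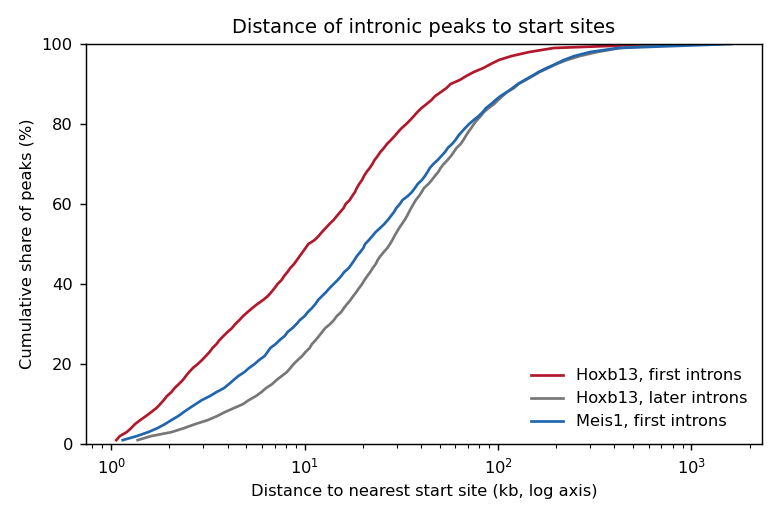
Cumulative share of peaks (%) against distance to the nearest start site in kb on a log axis, for first-intron Hoxb13 peaks, later-intron Hoxb13 peaks and first-intron Meis1 peaks. The Hoxb13 first-intron curve lies to the left, with its median at 10.5 kb against 27.6 kb and 20.5 kb.

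Peak strength is the authors' value per peak, used only to rank peaks within a list. First-intron Hoxb13 peaks ran from 17.8 to 310, with a median of 20.3 and quartiles of 18.9 and 23.7, against a median of 20.0 (18.6 and 22.8) in later introns. Both were below the median of 21.4 of the whole Hoxb13 list, and 70 of the 1929 members were among the strongest 10% of that list. In the stronger 50% of the list were 745 members (38.6%, 36.4 to 40.8), against 1140 of the later-intron peaks (34.6%, 33.0 to 36.3), an odds ratio of 1.19 (1.06 to 1.34, adjusted exact p = 0.00487). With peaks compared within 4 classes of distance to the start site, the odds ratio was 1.02 (0.900 to 1.15, exact stratified test, p = 0.801), so the call was lost. Within 5 kb of a start the share was 44.9% of first-intron and 43.4% of later-intron peaks, and beyond 100 kb it was 21.0% and 23.4%. In the Meis1 list, the stronger 50% of that list held 60.8% of its first-intron and 53.8% of its later-intron peaks. That odds ratio, without distance classes, was 1.33 (1.22 to 1.45), so the difference was not particular to Hoxb13.

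The strongest members were at genes of several kinds. The first was in Nfia, a nuclear factor I transcription factor (chr4:97775052-97775324, strength 310, rank 15 in the Hoxb13 list). Ugt1a10, a glucuronosyltransferase gene whose locus overlaps those of its relatives, followed (chr1:88176045-88176343, strength 293), and then Cep85l, which encodes a centrosomal protein (chr10:53371201-53371520, strength 273). Another nuclear factor I gene, Nfic, held one of strength 135 (chr10:81424276-81424460). The peak of Gm15441 (strength 129) was nearest to the start of Txnip, a regulator of glucose uptake and redox state, 4.00 kb away. Auts2, a regulator of neural transcription, held one of strength 94.6, 147 kb from the start. The last of the 10 were in Grhl2, an epithelial transcription factor (chr15:37234278-37234673, strength 80.4), and in Filip1l, a relative of a filamin-binding protein (chr16:57391397-57391792, strength 78.8). The other 2 were a peak placed in Samt2b on chromosome X (strength 193), outside the RefSeq locus of that gene, and one in a transcript without a gene identifier (strength 125), 2.29 kb from Marcks. Filip1l was the only one of these 10 to overlap a Meis1 peak, beside 7.93% of the whole Hoxb13 list.

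A difference between first and later introns in overlap with Meis1 was not shown. Of the members 153 (7.93%, 6.76 to 9.23) overlapped a Meis1 peak by at least 1 bp, against 257 later-intron peaks (7.80%, 6.91 to 8.77) and 7.93% of the whole Hoxb13 list. The odds ratio of first against later introns was 1.02 (0.821 to 1.26, adjusted exact p = 0.873), and 1.01 (0.810 to 1.26, exact stratified test, p = 0.956) within classes of distance. The shared members had a median strength of 21.2, against 20.3 for the others, and their summits were a median of 157 bp from the Meis1 summit, with 55 members within 100 bp of one.

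**Figure D2:**
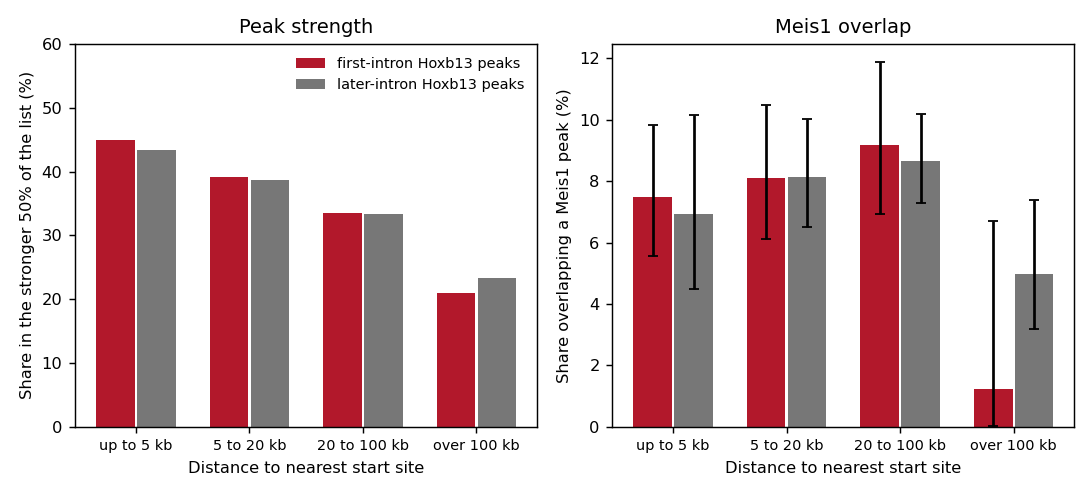
Share of Hoxb13 peaks in the stronger 50% of the Hoxb13 list (left, %) and share overlapping a Meis1 peak (right, %; bars are exact binomial 95% intervals), by class of distance to the nearest start site, first-intron peaks in red and later-intron peaks in grey. The share of stronger peaks is lower at longer distances in both (44.9% and 43.4% up to 5 kb, 21.0% and 23.4% beyond 100 kb), and the overlap intervals of the introns include each other's shares up to 100 kb, with 1 of 81 first-intron peaks shared beyond that.

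The sites shared with Meis1 that ranked highest by the weaker of their ranks were the following. Filip1l came first, where the Meis1 peak had strength 185 and the summits were 45 bp apart. Aida, which encodes an axin-binding protein, came next (chr1:183299145-183299540, Hoxb13 strength 63.7, Meis1 strength 91.6, summits 43 bp apart). Trak1, an adaptor of mitochondrial transport along microtubules, had a shared site of Hoxb13 strength 58.4 and Meis1 strength 60.6 (chr9:121314514-121314909, summits 84 bp apart). Hspg2, which encodes the basement membrane proteoglycan perlecan, had one of Hoxb13 strength 41.6 and Meis1 strength 125, but its summits were 263 bp apart. Nfic had a closer pair, 28 bp apart, with Hoxb13 strength 44.3 and Meis1 strength 45.9. The others of the 10 were in 2810006K23Rik, Gm15997, Actn1 (the non-muscle crosslinker alpha-actinin 1), Plekhm2 (a lysosome transport adaptor) and Maml3, with Hoxb13 strengths of 32.3 to 42.7. In 13 genes at least 2 members were shared, led by Trak1 with 4, and by Hspg2 and Rbm20 with 3 each.

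Genes with a first-intron Hoxb13 peak had Meis1 in the first intron more often than genes with Hoxb13 in later introns alone. A Hoxb13 peak in the first intron was found in 1070 of 21900 protein-coding genes, or 4.89%, counting peaks inside the RefSeq locus of the host. First introns of all transcripts of a gene were counted together, here and in the counts per gene below. A Meis1 peak lay in the first intron of 502 of these genes (46.9%, 43.9 to 49.96), against 213 of the 1382 genes (15.4%, 13.5 to 17.4) that had Hoxb13 peaks in later introns alone and 6.86% of all protein-coding genes. The odds ratio was 4.85 (4.00 to 5.89, adjusted exact p = 1.65e-64), and 7.23 (5.81 to 9.002, exact stratified test, p = 6.91e-83) within 10 classes of gene length. Meis1 peaks in later introns ran the other way, at 397 of the 1070 genes (37.1%, 34.2 to 40.1) and 764 of the 1382 (55.3%, 52.6 to 57.9), an odds ratio of 0.477 (0.404 to 0.564, adjusted exact p = 1.03e-18). Intron lengths were not used here, and their part in these counts was not tested. In 388 of the 502 genes no first-intron Hoxb13 peak overlapped a Meis1 peak, and in 114 (22.7%) at least 1 did.

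Genes with a first-intron peak also more often had Hoxb13 at the promoter. A promoter peak was present at 650 of the 1070 genes (60.7%, 57.7 to 63.7), against 646 of the 1382 with later-intron peaks alone (46.7%, 44.1 to 49.4) and 30.7% of all protein-coding genes. The odds ratio was 1.76 (1.49 to 2.08, adjusted exact p = 7.84e-12), and 1.73 (1.47 to 2.03) within classes of gene length. Members had another Hoxb13 peak within 5 kb in 842 cases (43.6%, 41.4 to 45.9), against 1117 later-intron peaks (33.9%, 32.3 to 35.6) and 40.8% of the whole list, an odds ratio of 1.51 (1.34 to 1.70, adjusted exact p = 5.85e-12). Within classes of distance to the start site this odds ratio was 0.996 (0.877 to 1.13, exact stratified test, p = 0.974).

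Most host genes had a single member and a few held many. Of the 1070 genes 770 had 1 first-intron Hoxb13 peak, 178 had 2, 98 had 3 to 5 and 24 had 6 or more, and the genes with at least 3 held 563 of the 1689 peaks (33.3%). Hosts were long genes, with a median length of 76.9 kb, against 102 kb for genes with later-intron peaks and 17.1 kb for all protein-coding genes. A first-intron peak was found in 0.504% of genes up to 10 kb long, 3.92% of those of 10 to 50 kb, 10.8% of those of 50 to 150 kb and 20.5% of longer ones. Among hosts the number of peaks followed gene length weakly (Spearman's rho 0.15 across 1070 genes, given as a description). A Meis1 peak in the first intron was present in 40.5% of genes with 1 Hoxb13 peak there, 60.1% with 2, 64.3% with 3 to 5 and 83.3% with 6 or more, where the median gene lengths were 64.7, 101.3, 111 and 99.1 kb.

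Fhl2, which encodes a LIM-domain scaffold protein abundant in heart muscle, had the most members. Its 18 peaks spread over 40.5 kb of chromosome 1 (chr1:43155130-43195630) with strengths from 17.9 to 42.9 (median 27.3), and it had 15 more in later introns and 3 at promoters. The 18 lay in first introns of different transcripts, not in a single intron. No Meis1 peak lay in a first intron of Fhl2, although a later-intron Hoxb13 peak of strength 19.9 overlapped one. The first introns of Elk3 and Rassf3 also held no Meis1 peak. Elk3, an ETS-family transcription factor, had 11 Hoxb13 peaks over 27.8 kb (strengths up to 27.4), also in first introns of different transcripts. Rassf3, a Ras-association protein, had 8 over 29.8 kb (up to 28.0). Adgrg1, an adhesion receptor, was the only other of the 24 genes with 6 or more Hoxb13 peaks there to lack a first-intron Meis1 peak.

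Rbm20, the splicing regulator of titin, had as many first-intron peaks of each factor, 14 of Hoxb13 and 14 of Meis1. Its Hoxb13 peaks spread over 114 kb (chr19:53687674-53801984) with strengths from 18.6 to 29.0, and 3 of them overlapped Meis1. Trak1 had 14 Hoxb13 peaks over 48.2 kb and 6 of Meis1, and Ablim1, an actin-binding LIM protein gene, had 14 over 211 kb and 10. The Ablim1 Hoxb13 peaks lay in first introns of different transcripts. The farthest was 224 kb from the gene's 5' end but 27.1 kb from the start of its own transcript. Hspg2 had 13 Hoxb13 peaks over 26.8 kb with strengths up to 55.7, and 5 of Meis1. Ryr2, which encodes the cardiac ryanodine receptor, had 10 Hoxb13 peaks over 134 kb, none above strength 25.2, and 7 of Meis1, of which 1 Hoxb13 peak overlapped one. Myocd, the coactivator of serum response factor, had 9 over 31.5 kb and 1 of Meis1, and no Hoxb13 peak at its promoter. Maml3, a coactivator of Notch signalling, had 7 over 394 kb, also in first introns of different transcripts, and 2 of Meis1. The strongest of the 7 (71.9) was 2.36 kb from the start. Maml3 shared the count of 7 peaks with 8 other protein-coding genes and is shown because its strongest peak was the highest among them. Some of these peaks overlap each other in the list. With overlapping peaks merged, Hspg2 had 12 and Elk3 had 10, and the counts of the other 8 genes stayed as given.

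**Figure D3:**
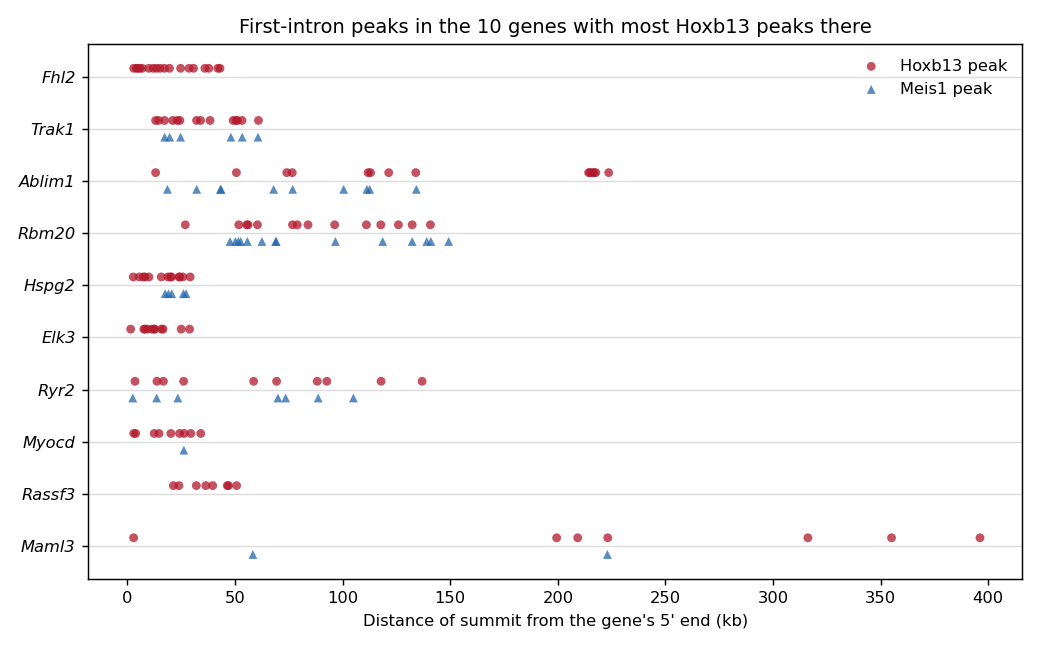
Summits of first-intron peaks of Hoxb13 (red circles) and Meis1 (blue triangles) in the 10 protein-coding genes with most first-intron Hoxb13 peaks (the last place, a tie at 7, taken by the strongest peak), one gene per line, against distance in kb from the 5' end of the gene's RefSeq locus. Each line holds the first introns of all transcripts of the gene. Fhl2 (18 Hoxb13 peaks), Elk3 (11) and Rassf3 (8) have no first-intron Meis1 peak, and Rbm20 has 14 of each.

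Gene lists were described by the share of members with a first-intron Hoxb13 peak, beside 4.89% of all protein-coding genes and with the list's median gene length, since longer genes held more. Calcium handling and ion channel genes had 13 of 32 (40.6%, median length 105 kb), with 38 peaks, the highest share by host gene. By the nearest gene they had 14 of 32, below the 9 of 20 of endothelial genes. Strong ones were in Gja1, which encodes connexin 43 (chr10:56383619-56384014, strength 33.8), and Pln, which encodes phospholamban, the inhibitor of the calcium pump (chr10:53339829-53340224, 32.3). Pln had 4 such peaks, as did Slc8a1 (the sodium-calcium exchanger) and Jph2 (junctophilin), and Cacna1c (the L-type calcium channel) had 5. Kcnq1 had 3, and Casq2, Cacna2d1, Kcnh2, Trdn and Stim1 had 1 each. A Meis1 peak was in the first intron of 17 of the 32 genes, beside 6.86% of all protein-coding genes. In the other lists this count ran from 0 of 20 cell cycle inhibitors to 12 of 31 cardiac transcription factors, with 5 of 16 neuronal genes.

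Cardiac transcription factors had 12 of 31 (38.7%, median length 81.8 kb), with 42 peaks. After Nfia, the strongest were in Mef2d (chr3:88149687-88150082, strength 47.8) and Foxo1 (chr3:52269930-52270325, 39.7), a MEF2 and a forkhead factor. Gata4, a core cardiac regulator, had 6 peaks with strengths up to 33.1, Tead1 had 4 and Nfib and Thrb had 3 each. Irx4, Foxp1 and Prdm16 had 2 each and Rora had 1.

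Sarcomere genes had 10 of 38 (26.3%, median length 26.6 kb). Actn2, the alpha-actinin of the Z-disc, led with 7 peaks, the strongest 20.7 kb from the start (chr13:12319616-12320011, 30.2). Ldb3, a Z-disc PDZ protein gene, had 3 (strongest chr14:34586746-34587141, 27.9), Xirp1, an actin-binding protein gene, had 2 (strongest 27.4), and Tpm1, a tropomyosin gene, had 4 with strengths up to 23.3. Ttn, Csrp3, Lmod2, Nexn and Fhod3 had 1 each, and Tmod1 had 2.

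Genes of energy metabolism were also among the hosts. Of fatty acid oxidation genes 9 of 32 had a member (28.1%, median length 28.7 kb). Ppargc1b, a coactivator of mitochondrial biogenesis, had 7 (strongest 34.8), Cd36, the fatty acid transporter, had 6 (strongest chr5:17844776-17845171, 32.1), and Cpt1a, a carnitine palmitoyltransferase gene, had 1 of strength 30.1 at 1.80 kb from the start. Rxra and Acacb had 3 each, Fabp3 and Esrrg 2 each, and Hadha and Pparg 1 each. Of glycolysis and hypoxia genes 7 of 28 had exactly 1 (25%, median length 21.3 kb). They were Pfkp (a phosphofructokinase, strength 32.4), Vegfa (the vascular growth factor, 27.4), Egln3 (an oxygen-sensing prolyl hydroxylase, 25.1), Egln1, Hk1, Hk2 and Slc16a1. The Egln3 peak overlapped a Meis1 peak of strength 135, with summits 129 bp apart.

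Cell cycle inhibitors, short genes with a median length of 5.85 kb, had 0 of 20. A Hoxb13 promoter peak was present at 15 of them, beside 30.7% of all protein-coding genes. This was not particular to these genes. In the other lists the count ran from 1 of 16 leukocyte genes to 22 of 28 glycolysis and hypoxia genes, with 24 of 32 fatty acid oxidation genes. Cell cycle activators had 2 of 25, in Ccnd3, a D-type cyclin (chr17:47511380-47511775, strength 35.6, shared with a Meis1 peak of strength 19.2), and E2f3, an S-phase transcription factor (24.4). TALE homeobox genes had 1 of 15, in Pknox2 (27.5). Calcineurin and NFAT genes had 2 of 16, in Rcan1, the calcineurin inhibitor (chr16:92428026-92428421, strength 42.3, 27.9 kb upstream of another start of the gene), and Ppp3ca, the catalytic subunit (35.7, 1.22 kb from a start). Hippo and growth factor genes had 5 of 29, with strengths of 19.0 to 23.9, in Fgf1, Insr, Vgll4, Igf1r and Nrg1.

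Among lists of other cell types, endothelial genes had 6 of 20 (30.0%, median length 43.5 kb). Fli1 and Erg, ETS factors of endothelium, had 5 and 3 peaks (strongest 29.8 and 29.7), and Eng, Esam, Flt1 and Kdr had 1 each. Smooth muscle and pericyte genes had 3 of 14 (Cspg4, Mylk and Pdgfrb, strengths 19.2 to 22.2). Fibroblast genes had 2 of 18, in Sparc, a matrix glycoprotein gene with 4 peaks (strongest chr11:55410246-55410641, 35.6), and Loxl1 (23.7). Neuronal genes had 1 of 16, in Rbfox1 (22.3), although their median length was 168 kb, and leukocyte genes had 0 of 16. Ventricle tissue mixes these cell types, and the lists do not give the cell type a peak came from.

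**Figure D4:**
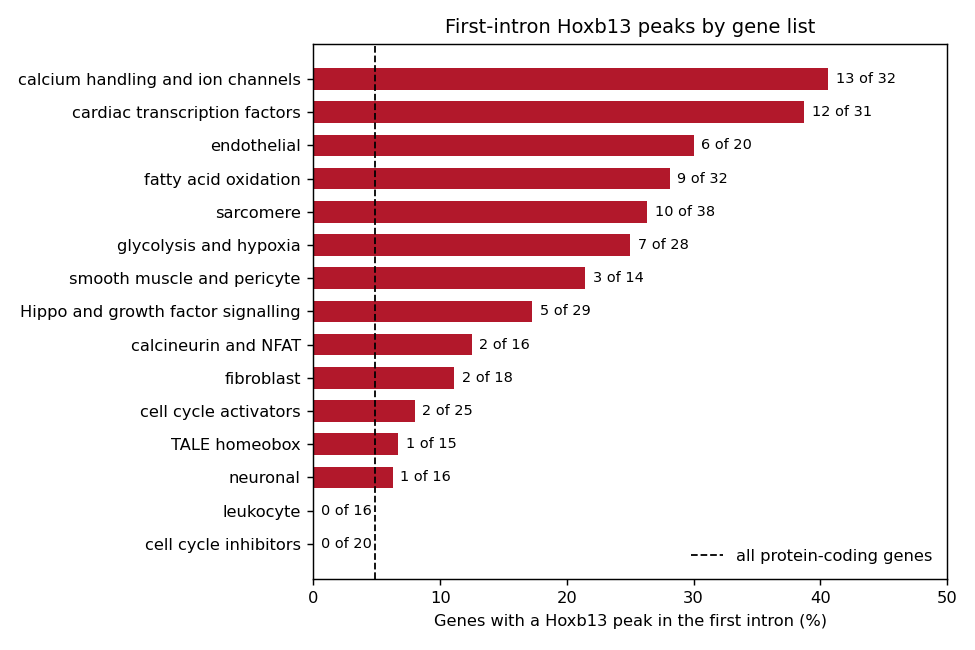
Share (%) of the protein-coding genes of each list that had a Hoxb13 peak in their first intron, with counts, and the share of all protein-coding genes (4.89%) as a dashed line. Calcium handling (13 of 32) and cardiac transcription factor genes (12 of 31) are at the top by host gene, and leukocyte (0 of 16) and cell cycle inhibitor genes (0 of 20) at 0.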

How the data were processed

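The deposited data were 2 annotated peak lists, 1 per factor. The tools named in the submitters' processing notes are ChIPseeker, deepTools 1.6, Bowtie2 2.2.3 and Picard, and the build is mm10. For the peak caller, its threshold and the joining of the 3 libraries, nothing is given in the sources used here. The peak strength is a deposited signal value that the files do not define, and the second deposited score was not used. Positions, widths, classes and distances are the authors' values. Members were taken by the text of the intron class. Of them 1822 had a host with an Entrez number, of which 1765 lay inside its RefSeq locus (57 did not), and 107 had a transcript name alone. Gene counts used the 1765. Python 3.11.15, scipy 1.17.1 and statsmodels 0.14.6 were used, with an overlap of at least 1 bp, Fisher's exact test, Mantel-Haenszel odds ratios with an exact conditional p (4 distance classes divided at 5, 20 and 100 kb; 10 gene-length classes), and a threshold of 0.05. The overlap of peaks and the Mantel-Haenszel odds ratios were tested on simulated data, and the other steps were not. Of the 9 comparisons, 4 were planned and 5 were added after the files were seen. The members, the 15 gene lists and the comparisons were chosen with earlier results of these data known. Named genes were the hosts of the 10 strongest and 10 best-ranked shared peaks, the 10 genes with most peaks, and up to 3 members of each list; Adgrg1, Lsamp and further list members were named after their values were seen. 1 list member that this rule takes is not reported here. Input libraries entered no comparison.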

Additional observations from a re-analysis of the deposited data

How the results depend on the processing

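No paired analysis was possible because each list holds 1 value per peak over 3 libraries, and for the same reason no replicate could be left out. The planned search for motifs in all intronic peaks was not run, since no genome sequence was used here. Of 53 alternative values, 49 kept their direction or stayed within 1.5 times and on the same side of the threshold. The higher share of stronger peaks in first than in later introns (odds ratio 1.19) was no longer called with 1 peak per host gene (1.15, exact p = 0.0568), with the strongest 10% as the limit (1.12, exact p = 0.476) or within distance classes (1.02); the cause was not tested. The odds ratio for another Hoxb13 peak within 5 kb was 0.996 within distance classes, against 1.51 without them. The Meis1 overlap ratio lay between 0.685 (strongest 10% of each list, 9 of 70 first-intron and 19 of 107 later-intron peaks) and 1.31 (reciprocal overlap of 50%, exact p = 0.0983) and, within distance classes, between 0.732 and 1.40 (exact p = 0.0563 for the highest); none of these alternatives gave a call. Using the nearest gene in place of the host moved the endothelial count to 9 of 20, against 6 of 20. Depth per library was unknown.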

Other observations

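In 13 cases a first-intron Hoxb13 peak lay on the start-site window of a long non-coding RNA gene, and 5 of them, chosen after their values were seen, are described here. Dysf, which encodes the membrane repair protein dysferlin, had one of strength 26.6 on the window of Gm33024 (chr6:84010926-84011321). Nek6, a mitotic kinase gene, had one of strength 32.0 whose summit was 21 bp from the start of Gm35808 (chr2:38533218-38533613). Gab1, a docking protein of growth factor receptors, had one of strength 28.8 on that of Gm51580, and Kcne1, a potassium channel subunit gene, one of strength 25.4 that touched the window of Gm30163. A peak of Rbm20 (strength 18.6) touched that of Gm30890. Of the 22 peaks on start-site windows of any kind, 2 overlapped Meis1, beside 7.93% of the whole Hoxb13 list. They were at Srebf1, a regulator of lipid synthesis (strength 29.9), and at Arrdc3, each on a window of the host gene. Of the 13 on long non-coding RNA windows 0 overlapped Meis1, and these counts are too small to set the kinds of window apart.

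Peak width went with rank. Of the 1929 members 1921 were 396 bp wide, and the 8 others, from 114 bp wide, were the 8 strongest. In the whole Hoxb13 list 266 peaks (1.19%) had another width, with a median strength of 119, against 21.4 for all peaks. The host named in the annotation did not always hold the peak: 57 members lay outside the RefSeq locus of their host, 9 of them under the name Bc1.

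Of 5 defining markers per cell type, a first-intron Hoxb13 peak was in 1 of cardiomyocytes (Ryr2), 1 of endothelium (Kdr), 2 of smooth muscle and pericytes (Pdgfrb and Cspg4) and 0 of fibroblasts, leukocytes and neurons, beside 4.89% of all protein-coding genes. With 5 genes per type these counts cannot set a cell type apart from that share, and the longer fibroblast and neuronal lists had 2 of 18 and 1 of 16.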
